A study of Mus musculus with 8 samples.

Results

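The 8 genes described here are regulators of cortical area patterning and genes read out as markers of regional identity. The regulators are the transcription factors Nr2f1, Nr2f2, Pax6 and Sp8, and the readouts are Bhlhe40, Tshz2, Crabp1 and Id2. They were chosen by name, as the rows of the count tables whose gene symbol equals a listed one, and make up 8 of the 55202 genes in the joined tables. All 8 had enough reads to be among the 22820 genes tested.

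RNA was sequenced from microdissected subplate, the early-born neuronal layer at the base of the cortical plate, cut from somatosensory cortex on the day of birth (postnatal day 0) in mice of mixed strain. Lhx2, which encodes a LIM-homeodomain transcription factor, was deleted from a floxed allele in 2 lines of mice. Mutants of the Emx1Cre line have the genotype Emx1Cre11.5;Lhx2lox/lox, and mutants of the NexCre line have the genotype NexCre;Lhx2lox/lox. The controls of both lines are labelled WT, and whether they carried a Cre or a floxed allele is not given in the sources used here. Emx1Cre acts in the progenitors of the dorsal telencephalon and in the cells that descend from them, whereas NexCre, driven from the Neurod6 locus, acts in excitatory neurons after their last division. Interneurons, which migrate into the cortex from the ventral telencephalon, are not targeted in either line. Each of the 4 groups had 2 libraries, and each library was a pool of tissue from 2 brains, so that the spread between libraries is a spread between pools. The labels name no treatment.

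Cortical areas are first laid out as gradients of transcription factors across the progenitors of the ventricular zone. Pax6 is high at the rostral and lateral side, Sp8 at the rostral and medial side, and Nr2f1 and Nr2f2 at the caudal side. The neurons that these progenitors make then express genes in patterns that differ between areas and layers, and such genes serve as readouts of area identity. Lhx2 itself belongs to this group, since it is expressed in a graded way in cortical progenitors and sets apart the cortex from its neighbouring signalling centres.

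The libraries held between 31.2 M and 64.4 M reads assigned to genes. Lhx2 was at 90.4 and 91.5 CPM (read counts relative to the library's total, scaled by the TMM method) in the Emx1Cre controls against 64.0 and 42.7 CPM in Emx1Cre mutants. It was at 182 and 236 CPM in the NexCre controls against 227 and 245 CPM in the NexCre mutants. The Lhx2 counts were therefore lower in both Emx1Cre mutants (log2 fold change -0.77 ± 0.20 SE; adjusted p = 0.273 by the quasi-likelihood F test of edgeR, 0.0318 by DESeq2), and the NexCre groups overlapped. Counts over a whole gene do not show whether some of its exons were removed. The lines also differed in tissue markers: the 10 subplate markers summed to 356 to 447 CPM in Emx1Cre libraries and to 102 to 109.7 CPM in NexCre libraries. Of the subplate markers, Cplx3 was at 13.1 to 62.7 CPM in Emx1Cre libraries and at 0.679 to 1.42 CPM in NexCre libraries. Conversely, the intermediate progenitor marker Eomes was at 0.0248 to 2.40 CPM in Emx1Cre libraries and at 38.5 to 70.4 CPM in NexCre libraries.

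None of the 8 genes passed an adjusted p of 0.05 in either mutant comparison with edgeR. In Emx1Cre mutants, 0 of 8 were called, against 0.0789% of all genes tested; 1 of 8, Id2, had an unadjusted p under 0.05, against 7.59% of all genes, and the same gene was the 1 that DESeq2 called, against 1.48%. In NexCre mutants, 0 of 8 were called, against 0.0307% of all genes, 0 of 8 had an unadjusted p under 0.05, against 3.96%, and DESeq2 called 0, against 0.394%. The clearest difference was in Id2, whose level in Emx1Cre mutants was lower by 1.79-fold. Pax6, Sp8 and Id2 had both NexCre mutants above both NexCre controls, by 1.26 to 1.46-fold, without passing any of these tests. With 2 libraries against 2, an exact two-sided permutation test cannot give a p below 0.333. Each p given here therefore rests on a modelled spread, estimated for each gene over all groups and drawn towards that of other genes.

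**Figure D1:**
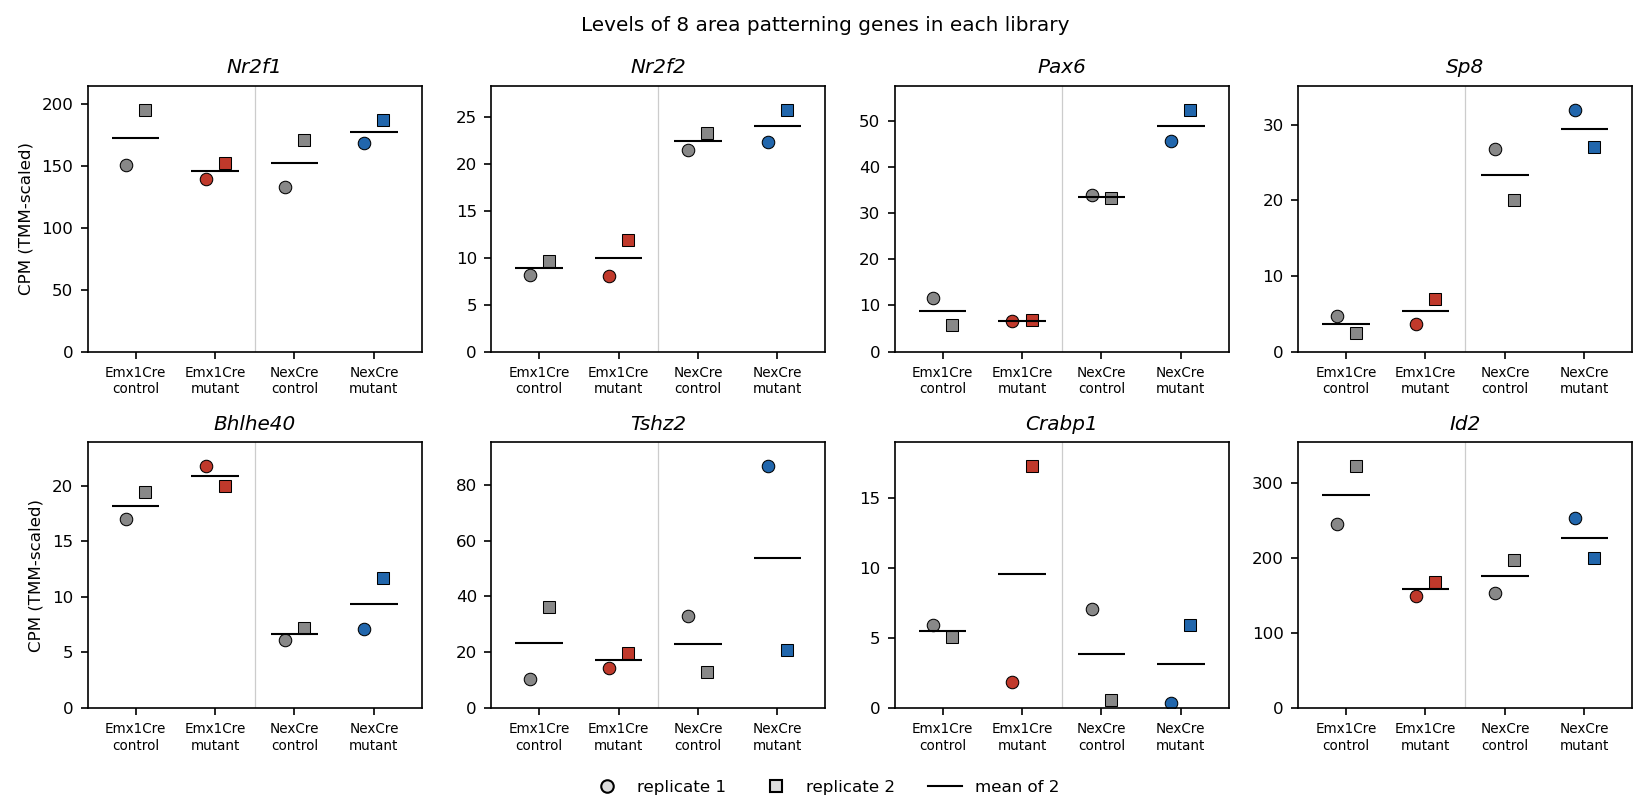
Level of each of the 8 genes (vertical axis, TMM-scaled CPM from 0) in the 8 libraries, grouped by line and genotype; circles are replicate 1, squares replicate 2 and bars the mean of 2. Pax6, Sp8 and Nr2f2 sit higher and Bhlhe40 lower in the NexCre line, and Id2 is at 149 and 167 CPM in Emx1Cre mutants against 244 and 321 CPM in their controls.

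Among the regulators, Nr2f1 and Nr2f2 encode the orphan nuclear receptors COUP-TFI and COUP-TFII, which are high in caudal cortex and, in the case of Nr2f2, in interneurons from the caudal ganglionic eminence. Nr2f1 (chr13:78188973-78199757, minus strand, mm10) was abundant in every library. It was at 151 and 195 CPM in Emx1Cre controls, 139.8 and 153 CPM in Emx1Cre mutants, 133 and 171 CPM in NexCre controls, and 168 and 187 CPM in NexCre mutants. Mutants and controls overlapped in both lines. The log2 fold change was -0.24 ± 0.17 (SE; 95% interval -0.63 to 0.14) in Emx1Cre mutants and 0.23 ± 0.17 (-0.16 to 0.61) in NexCre mutants, with adjusted p of 0.836 and 1. These intervals exclude a change of Nr2f1 by 2-fold in either direction in either line. An antisense gene, A830082K12Rik, shares 123 exon bases with Nr2f1 and held 708 to 1443 reads per library, and how the authors counted strand is not given in the sources used here.

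Nr2f2 (chr7:70351944-70366735, minus strand) was at 8.16 and 9.67 CPM in the Emx1Cre controls against 8.10 and 11.9 CPM in the Emx1Cre mutants. In the NexCre line it was at 21.5 and 23.4 CPM in the controls against 22.4 and 25.8 CPM in the mutants. Within each line the genotypes overlapped, while every NexCre library lay above every Emx1Cre library. The mutant fold changes were 0.16 ± 0.23 on the log2 scale in Emx1Cre mutants (95% interval -0.35 to 0.67) and 0.10 ± 0.23 in NexCre mutants (-0.40 to 0.60). Neither differs from 0 by more than its standard error. B130024G19Rik lies on the opposite strand, shares 643 exon bases with Nr2f2 and held at most 36 reads in a library.

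Pax6 encodes a paired-domain and homeodomain factor of cortical radial glia, where it stands at the top of the sequence that leads through Eomes-expressing intermediate progenitors to neurons. Pax6 (chr2:105668900-105697364, plus strand) was at 11.6 and 5.86 CPM in the Emx1Cre controls against 6.61 and 6.76 CPM in the Emx1Cre mutants. In NexCre libraries it was at 33.9 and 33.2 CPM in the controls against 45.7 and 52.4 CPM in the mutants. The Emx1Cre mutants fell within the range of their controls, which differed from each other by 1.98-fold, whereas both NexCre mutants lay above both NexCre controls, whose levels were within 1.02-fold of each other. The log2 fold change was -0.40 ± 0.28 in Emx1Cre mutants (adjusted p = 0.83). In NexCre mutants it was 0.55 ± 0.27 (95% interval -0.05 to 1.15), with an unadjusted p of 0.0694 and an adjusted p of 1, higher in 2 of 2 mutants.

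Progenitor markers stood beside Pax6 in the NexCre line. Eomes was at 38.6 and 38.5 CPM in the NexCre controls against 70.4 and 55.8 CPM in the NexCre mutants. The proliferation gene Mki67 was at 94.4 and 72.9 CPM in the controls against 118 and 97.8 CPM in the mutants. Across the whole list of 13 radial glia and progenitor markers, none of which was at 0 in any library, the summed level was 3587 and 2806 CPM in NexCre controls and 3545 and 3357 CPM in mutants. The groups thus overlapped on the list while Eomes and Mki67 did not. Of the 13 markers, 5 had both mutants above both controls, 1 had both below and 7 overlapped. The part that progenitor content had in the Pax6 values was not tested.

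Sp8 encodes a zinc-finger factor of the rostral patterning centre that takes part in Fgf8 signalling, and it is also expressed in interneurons of caudal ganglionic eminence origin. Sp8 (chr12:118846329-118852576, plus strand) was at 4.75 and 2.49 CPM in the Emx1Cre controls against 3.64 and 7.01 CPM in the Emx1Cre mutants. It was at 26.7 and 20.1 CPM in the NexCre controls against 31.9 and 27.0 CPM in the NexCre mutants. The Emx1Cre genotypes overlapped; the NexCre mutants were above both controls, the lower mutant by less than the gap between the controls. The log2 fold change was 0.54 ± 0.37 in Emx1Cre mutants and 0.33 ± 0.35 in NexCre mutants, with adjusted p of 0.821 and 1.

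The sequence around the start sites of these genes was searched for the core that LIM-homeodomain factors bind, TAATTA, which reads the same on both strands. RefSeq promoter windows (GRCm38.p6, 250 bases before to 50 bases after a start) were found for 7 of the 8 genes, 11 windows in all. The core was in 1 of these 11 windows, against 5.29% of 32851 windows over all genes. The match was 188 bases before an Sp8 start at position 118847559 of chromosome 12, and the 30 bases around it (chr12:118847359-118847388, plus strand) are shown because no other window of the 8 genes held the core, in capitals here:
Sp8: ctcttgctggttTAATTAgtttccttttat
The Sp8 start at 118847559 lies inside the Sp8 gene of the GENCODE annotation, and no annotated exon covers these 30 bases. The Sp8 windows of the starts at 118846329, where that gene begins, and at 118847233 held no match. A match describes letters in the window and shows no binding.

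Of the readouts, Id2 showed the clearest difference between genotypes. Id2 encodes a helix-loop-helix protein without a DNA-binding domain, which pairs with basic helix-loop-helix factors and keeps them off DNA; in the cortex its expression differs between layers and areas. Id2 (chr12:25093799-25097140, minus strand) was at 244 and 321 CPM in the Emx1Cre controls against 149 and 167 CPM in the Emx1Cre mutants. It was at 153 and 197 CPM in the NexCre controls against 253 and 199 CPM in the NexCre mutants. Both Emx1Cre mutants lay below both controls, whereas both NexCre mutants lay above both controls, the closest pair at 199 against 197 CPM.

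In Emx1Cre mutants the Id2 log2 fold change was -0.84 ± 0.19 (SE, 95% interval -1.27 to -0.41), lower in 2 of 2 mutants. By edgeR the unadjusted p was 0.00149, rank 166 of 22820 genes, and the adjusted p was 0.202; by DESeq2 the log2 fold change was -0.83 ± 0.22 with an adjusted p of 0.0147. Over all alternatives the adjusted p ran from 0.000216 to 0.486, and the log2 fold change from -1.02 to -0.64. In NexCre mutants the log2 fold change was 0.37 ± 0.19 (-0.06 to 0.80), with an unadjusted p of 0.0852 and an adjusted p of 1. The tissue is a mixture, and fewer cells of a type and less RNA per cell cannot be told apart.

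Markers of several cell types moved with the Emx1Cre genotype beside Id2. The 8 astrocyte markers, none at 0, summed to 1167 and 1197 CPM in Emx1Cre controls and to 2926 and 2421 CPM in Emx1Cre mutants. The 10 excitatory neuron markers, none at 0, summed to 1580 and 1976 CPM in controls and to 1488 and 1456 CPM in mutants. The 10 subplate markers, none at 0, summed to 394 and 447 CPM in controls and to 356 and 363 CPM in mutants. All 8 astrocyte markers had both mutants above both controls, whereas the other lists were mixed: 3 excitatory markers were lower, 1 higher and 6 overlapped, and 5 subplate markers were lower, 3 higher and 2 overlapped. Further sums were higher in both mutants than in both controls. Radial glia and progenitor markers summed to 2764 and 1884 CPM in the controls against 3685 and 2825 CPM in the mutants, and endothelial and pericyte markers to 313 and 264 CPM against 477 and 345 CPM. Of the 13 progenitor markers 4 were higher in this way, 0 were lower and 9 overlapped. Of the 9 endothelial and pericyte markers 7 were higher, 0 were lower and 2 overlapped. Microglial markers summed to 99.5 and 77.7 CPM against 104 and 152 CPM, and meningeal and fibroblast markers, 1 of them at 0 in Emx1Cre control 2, to 22.6 and 17.8 CPM against 45.1 and 166 CPM. Of the 7 microglial markers 3 were higher, 0 were lower and 4 overlapped. Of the 9 meningeal and fibroblast markers 8 were higher, 0 were lower and 1 overlapped. Oligodendrocyte lineage markers summed to 606 and 571 CPM against 631 and 741 CPM (3 of 5 higher, 0 lower). Thalamic markers, 1 of them at 0 in Emx1Cre control 1 and in Emx1Cre mutant 1, summed to 48.4 and 51.4 CPM against 64.2 and 69.5 CPM (5 of 7 higher, 1 lower). Erythroid markers summed to 1020 and 1108 CPM against 1140 and 1658 CPM (3 of 4 higher, 0 lower). Interneuron sums overlapped, at 468 and 597 CPM in the controls against 582 and 975 CPM in the mutants, though 6 of 12 markers were higher and 0 lower. Caudal-type interneuron sums overlapped too, at 207 and 252 CPM against 254 and 239 CPM, though 5 of 7 markers were higher and 0 lower. The part of these cells in the Id2 value was not tested. In NexCre libraries the excitatory markers summed to 1999 and 2309 CPM in controls and to 1825 and 1949 CPM in mutants. Both mutants lay below both controls in the sum, where Id2 lay above them. Of the 10 markers 3 were lower in this way, 1 was higher and 6 overlapped. The 10 include Neurod6, the locus that drives NexCre, at 395 and 507 CPM in NexCre controls against 308 and 228 CPM in NexCre mutants. They also include Emx1, the locus that drives the Cre of the other line. The sums are therefore no measure of excitatory neurons alone, and the part of these loci in them was not tested.

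The Id2 window before the RefSeq start at position 25096092 of chromosome 12 held no TAATTA. That start lies inside the longer Id2 gene of the GENCODE annotation, so the 89 bases of the window that no annotated exon covers (GRCm38.p6 chr12:25096254-25096342, minus strand) fall in an intron of that longer transcript. They are shown because Id2 had the clearest mutant difference; there are no capitals, as there is no match:
Id2: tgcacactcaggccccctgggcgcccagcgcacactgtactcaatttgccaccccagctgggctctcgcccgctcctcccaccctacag
The absence of these letters from the window says nothing about whether a factor binds elsewhere.

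The 3 paralogs of Id2 had different profiles; Id1 and Id4 were chosen for this comparison after their values were seen. Id3, which encodes a protein of the same helix-loop-helix family, was at 46.3 and 42.0 CPM in the Emx1Cre controls against 82.9 and 85.2 CPM in the Emx1Cre mutants. Its log2 fold change was 0.93 ± 0.16, with an adjusted p of 0.0965 by edgeR and 9.3e-05 by DESeq2. Both mutants were thus above both controls by a gap far larger than the spread within either group. Id1 was at 19.5 and 15.8 CPM in the Emx1Cre controls against 25.5 and 26.5 CPM in the mutants (log2 fold change 0.56 ± 0.19, adjusted p = 0.504), and Id4 overlapped between genotypes. Id2 was therefore lower, and Id1 and Id3 higher, in both Emx1Cre mutants than in both controls. This contrast was not seen in the NexCre line, where Id1, Id2 and Id3 were each higher in both mutants than in both controls. Id1 was at 14.7 and 12.4 CPM in the NexCre controls against 18.8 and 17.4 CPM in the NexCre mutants. Id3 was at 15.7 and 18.8 CPM against 25.1 and 22.7 CPM, and Id4 overlapped there too.

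**Figure D2:**
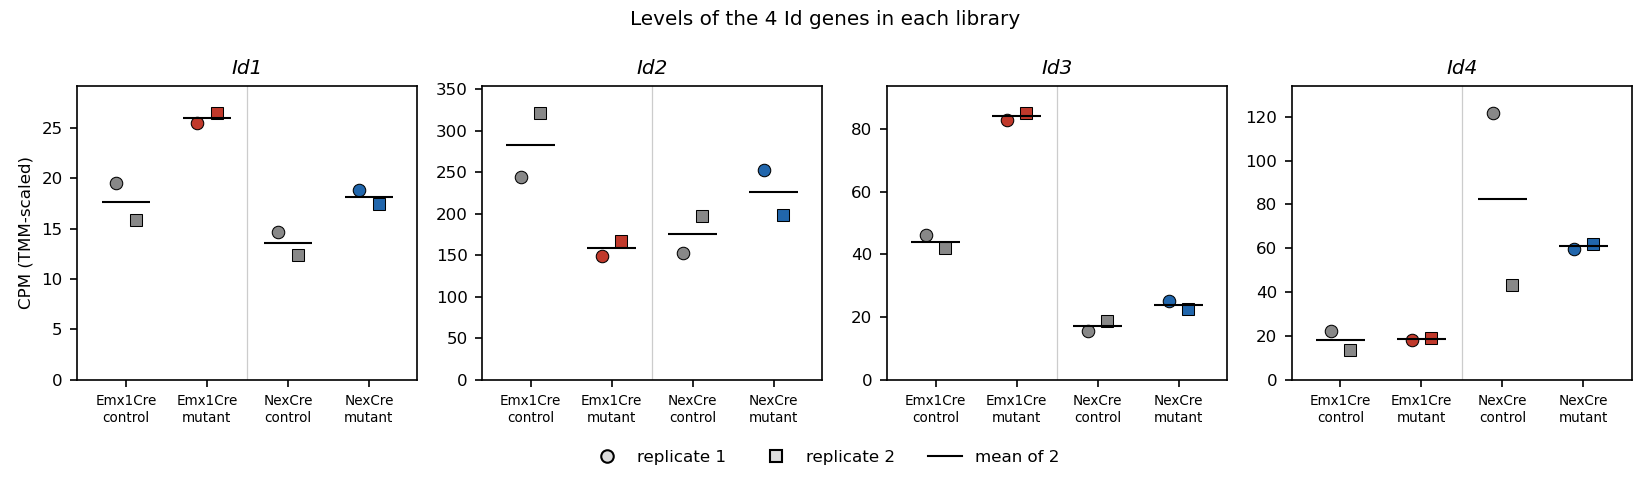
Levels of Id1, Id2, Id3 and Id4 (vertical axis, TMM-scaled CPM from 0, a separate scale in each panel) in the 8 libraries; circles are replicate 1, squares replicate 2 and bars the mean of 2. In Emx1Cre mutants Id2 lies below and Id1 and Id3 lie above their controls; Id3 is at 82.9 and 85.2 CPM there against 46.3 and 42.0 CPM.

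Bhlhe40 encodes a basic helix-loop-helix repressor that responds to neuronal activity and takes part in the circadian clock. Bhlhe40 (chr6:108660629-108666925, plus strand) was at 17.0 and 19.4 CPM in the Emx1Cre controls against 21.7 and 19.95 CPM in the Emx1Cre mutants. It was at 6.10 and 7.14 CPM in the NexCre controls against 7.13 and 11.6 CPM in the NexCre mutants. The Emx1Cre groups did not overlap, by a margin of under 1 CPM, and the lower NexCre mutant lay just under the higher control. The log2 fold change was 0.20 ± 0.25 in Emx1Cre mutants (adjusted p = 0.966) and 0.50 ± 0.26 in NexCre mutants (unadjusted p = 0.0795, adjusted p = 1).

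Tshz2 encodes a teashirt-family zinc-finger factor that, in mature cortex, marks near-projecting neurons of deep layers. Tshz2 (chr2:169633013-170071816, plus strand) was at 10.5 and 36.2 CPM in the Emx1Cre controls against 14.5 and 19.8 CPM in the Emx1Cre mutants. In NexCre libraries it was at 33.1 and 13.0 CPM in the controls against 86.7 and 20.9 CPM in the mutants. Replicates of the same group differed by 1.37 to 4.15-fold, and the genotypes overlapped in both lines. The largest fold change of the 8 genes in NexCre mutants, 1.23 ± 0.69 on the log2 scale (95% interval -0.32 to 2.77), rested on NexCre mutant 1, and without a library at a time it ran from -0.15 to 2.05.

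The same NexCre libraries that were high in Tshz2 were high in choroid plexus markers. The 5 choroid plexus markers, none of them at 0 there, summed to 376 CPM in NexCre control 1 and 2054 CPM in NexCre mutant 1, against 5.49 and 22.3 CPM in the other two NexCre libraries. The sums rest mostly on Ttr, whose mean over the 8 libraries was 297 CPM, against 7.39 CPM for the next marker, Clic6. In the Emx1Cre line their sums were 6.11 to 19.3 CPM, with 1 marker at 0 in Emx1Cre mutant 2, although Tshz2 varied there by up to 3.44-fold between replicates. The part of choroid plexus in the Tshz2 values was not tested. Gm26883, on the opposite strand, shares 5076 exon bases with Tshz2, so that reads of these genes could not be separated without strand. Neither Gm26883 nor A630075F10Rik, also on the opposite strand with 175 shared exon bases, was found by symbol among the counted genes. Their reads can therefore not be given.

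Crabp1 encodes a cytosolic protein that binds retinoic acid, a signal with a graded source along the cortex. Crabp1 (chr9:54764748-54773110, plus strand) was at 5.94 and 5.05 CPM in the Emx1Cre controls against 1.84 and 17.2 CPM in the Emx1Cre mutants. It was at 7.07 and 0.574 CPM in the NexCre controls against 0.368 and 5.94 CPM in the NexCre mutants, where the lowest value stands for 14 reads. Mutants overlapped controls in both lines. Replicates differed by 9.34-fold in Emx1Cre mutants, 12.3-fold in NexCre controls and 16.1-fold in NexCre mutants, but by 1.18-fold in Emx1Cre controls. The log2 fold changes, 0.79 ± 1.24 in Emx1Cre mutants and -0.26 ± 1.27 in NexCre mutants, had intervals from -1.97 to 3.55 and from -3.09 to 2.57, so that changes of several-fold in either direction were not detectable with this spread.

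Crabp1 moved between libraries together with some genes of the striatum, which lies under the cortical white matter. The dopamine receptor gene Drd2 was at 5.14, 2.00, 2.73 and 18.1 CPM in Emx1Cre control 1, control 2, mutant 1 and mutant 2. In the NexCre line Drd2 was at 3.86, 0.325, 0.394 and 2.26 CPM in the same order. In each line the library that was highest in Crabp1 was also highest in Drd2. Another striatal marker, Drd1, had a log2 fold change of 0.04 ± 0.17 in Emx1Cre mutants and overlapped between genotypes. The 9 striatal markers, none at 0, summed to 137 to 161 CPM in the other three Emx1Cre libraries and to 393 CPM in Emx1Cre mutant 2, and to 37.2 to 73.3 CPM in the NexCre line. Emx1Cre mutant 2 was also highest of the Emx1Cre libraries in the 12 interneuron markers, none at 0, at 975 CPM against 468 to 597 CPM, and in the meningeal and fibroblast markers, at 166 CPM against 17.8 to 45.1 CPM. NexCre control 1, the NexCre library highest in Crabp1, was also the highest of that line in the 7 thalamic markers. They summed to 225.5 CPM there against 54.1 to 62.1 CPM in the rest of the line, with 1 marker at 0 in NexCre control 2. The part of striatal tissue and of these other cells and tissues in the Crabp1 values was not tested.

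**Figure D3:**
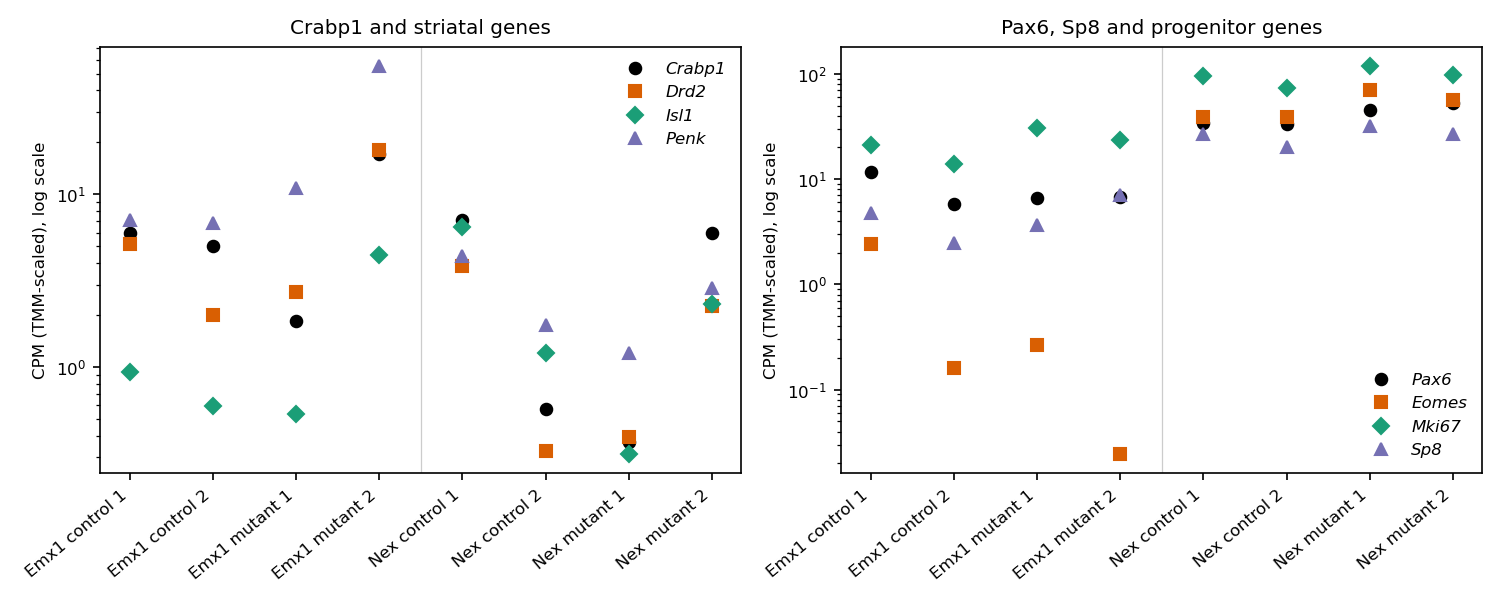
Levels (vertical axis, TMM-scaled CPM on a log scale) in each of the 8 libraries (horizontal axis; Emx1 and Nex stand for the Emx1Cre and NexCre lines) of Crabp1 with the striatal genes Drd2, Isl1 and Penk on the left, and of Pax6 and Sp8 with the progenitor genes Eomes and Mki67 on the right. Crabp1 and Drd2 are both highest in Emx1Cre mutant 2, at 17.2 and 18.1 CPM, and Pax6, Sp8, Eomes and Mki67 are all higher in the NexCre line.

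Whether the 2 deletions differed in effect was asked with the difference of the log2 fold changes, NexCre minus Emx1Cre. With edgeR 0 of 8 genes were called, against 0.00438% of all genes tested, 2 of 8 had an unadjusted p under 0.05, against 5.44%, and DESeq2 called 1 of 8, against 0.487%. The Id2 difference was 1.21 ± 0.27 on the log2 scale (95% interval 0.60 to 1.81), with an unadjusted p of 0.0013, an adjusted p of 0.54 by edgeR and an adjusted p of 0.0293 by DESeq2. The Pax6 difference was 0.94 ± 0.38, with an unadjusted p of 0.0345 and an adjusted p of 0.875. For the other 6 genes the difference ran from -1.05 ± 1.77 for Crabp1 to 1.67 ± 0.98 for Tshz2, none with an unadjusted p under 0.05.

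The median log2 fold change of the 8 genes was -0.04 in Emx1Cre mutants, with 4 above and 4 below 0, where the median of all genes tested was 0. In NexCre mutants it was 0.35, with 7 above 0 and 1, Crabp1, below it, where the median of all genes was 0.0038. As for separation, 2 of 8 genes had groups that did not overlap in the Emx1Cre line, against 30.2% of all genes. Bhlhe40 was the 1 with both mutants higher, against 15.1% of all genes, and Id2 the 1 with both lower, against 15.2%. In the NexCre line 3 of 8 did not overlap, against 35.8% of all genes, and all 3 (Pax6, Sp8 and Id2) had both mutants higher, against 18.1%.

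**Figure D4:**
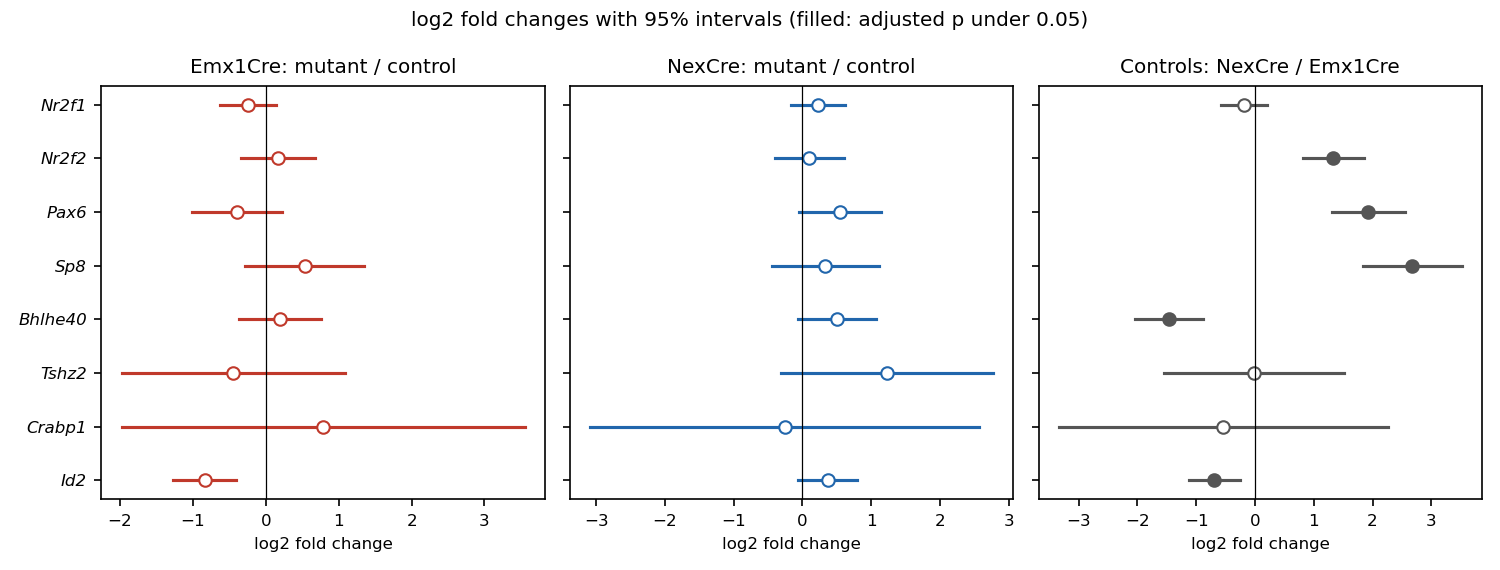
Log2 fold changes of the 8 genes (points) with 95% intervals (lines) in Emx1Cre mutants against controls, NexCre mutants against controls, and NexCre controls against Emx1Cre controls; filled points have an adjusted p under 0.05 by edgeR. No mutant comparison has a filled point, and the intervals of Tshz2 and Crabp1 are the widest; 5 genes are filled in the comparison of the controls.

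The largest differences among these 8 genes lay between the 2 sets of controls. In NexCre controls against Emx1Cre controls, edgeR called 5 of 8 genes, against 45.8% of all genes tested, and DESeq2 called 5, against 47%. Of the edgeR calls 3 were higher, against 26.6% of all genes, and 2 lower, against 19.3%. The groups of those 5 genes did not overlap, against 74.1% of all genes. The median log2 difference over all genes was 0.17, and the values that follow are to be read against it. Sp8 was higher by 2.68 ± 0.38 on the log2 scale, a fold of 6.40 (adjusted p = 0.000513). Pax6 was higher by 1.93 ± 0.28, a fold of 3.82 (adjusted p = 0.000586), and Nr2f2 by 1.33 ± 0.23, a fold of 2.52 (adjusted p = 0.00152). Bhlhe40 was lower in NexCre controls, with a log2 difference of -1.46 ± 0.26 (adjusted p = 0.00176), and Id2 with -0.69 ± 0.19 (adjusted p = 0.0157). The Id2 call was lost without Emx1Cre control 2 (adjusted p = 0.0897) and without NexCre control 1 (adjusted p = 0.114). Nr2f1, Tshz2 and Crabp1 had log2 differences of -0.19 ± 0.17, -0.02 ± 0.69 and -0.54 ± 1.25 and were not called.

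Both sets of controls carry the same label for genotype, strain, age and tissue, so the line and the makeup of the dissected tissue cannot be told apart. Differences between the 2 sets of libraries, whose counts came as separate tables, cannot be told apart from these either. Emx1Cre libraries held 40.8 M to 64.4 M reads and 17592 to 19152 genes with at least 10 reads. NexCre libraries held 31.2 M to 38.95 M reads and 20354 to 21760 such genes. Beside the higher Sp8 and Nr2f2, the 7 markers of caudal-type interneurons, none at 0, summed to 464 to 586 CPM in NexCre libraries against 207 to 254 CPM in Emx1Cre libraries. Most of that sum was Cnr1, at 347 to 487 CPM against 128 to 173 CPM; of the 7 markers, 4 were higher in both NexCre controls than in both Emx1Cre controls, 1 was lower and 2 overlapped. Beside the higher Pax6, Mki67 was at 72.9 to 118 CPM in NexCre libraries against 14.1 to 30.9 CPM in Emx1Cre libraries. The 13 progenitor markers summed to 3587 and 2806 CPM in the NexCre controls against 2764 and 1884 CPM in the Emx1Cre controls. Of these markers, 11 were higher in both NexCre controls than in both Emx1Cre controls, 0 were lower and 2 overlapped. With the mutants included, the sums overlapped between the lines, at 2806 to 3587 CPM and 1884 to 3685 CPM. The part of these markers in the line differences was not tested.

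To compare levels between genes, counts were also set per kilobase of exon (RPKM). Id2 stood highest of the 8 in each group, at 116 ± 22.4 RPKM in Emx1Cre controls, 64.9 ± 5.28 in Emx1Cre mutants, 71.8 ± 12.7 in NexCre controls and 92.6 ± 15.6 in NexCre mutants (mean ± SD, n = 2). Nr2f1 came next in each group, at 28.7 ± 1.77 to 34.9 ± 2.65 RPKM. The gap between Id2 and Nr2f1 and the gap between Nr2f1 and the gene below it were larger than the SDs in all groups. The remaining 6 genes had means of 0.572 to 11.9 RPKM.

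Below Nr2f1 the order depended on the line. In Emx1Cre controls the levels fell from Crabp1 (6.85 ± 0.78 RPKM) through Bhlhe40 (3.87 ± 0.36), Tshz2 (3.01 ± 2.34), Nr2f2 (1.03 ± 0.12) and Sp8 (0.793 ± 0.351) to Pax6 (0.748 ± 0.348). Of those neighbours, Bhlhe40 and Tshz2, Tshz2 and Nr2f2, Nr2f2 and Sp8, and Sp8 and Pax6 did not differ beyond their spread. In NexCre controls Sp8 stood below Nr2f1 (5.13 ± 1.04 RPKM) and Bhlhe40 last (1.41 ± 0.16), with Crabp1 (4.76 ± 5.72), Tshz2 (2.96 ± 1.83), Pax6 (2.87 ± 0.04) and Nr2f2 (2.60 ± 0.15) between them. There, Sp8 and Crabp1, Crabp1 and Tshz2, and Tshz2 and Pax6 did not differ beyond their spread. In Emx1Cre mutants the order was as in their controls except that Sp8 (1.17 ± 0.52 RPKM) stood level with Nr2f2 (1.16 ± 0.31), with Pax6 again last (0.572 ± 0.009). There, Crabp1 (11.9 ± 13.6 RPKM) and Bhlhe40 (4.43 ± 0.27) did not differ beyond their spread. Crabp1 was the lower of them in Emx1Cre mutant 1, at 2.30 against 4.62 RPKM. In NexCre mutants Tshz2 (6.92 ± 5.98 RPKM) and Sp8 (6.46 ± 0.76) stood below Nr2f1, then Pax6 (4.19 ± 0.41), Crabp1 (3.93 ± 4.91), Nr2f2 (2.79 ± 0.28) and Bhlhe40 (1.99 ± 0.68). There, Tshz2 and Sp8, Pax6 and Crabp1, and Crabp1 and Nr2f2 did not differ beyond their spread, nor did Nr2f2 and Bhlhe40.

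The 8 genes were then set beside 44 other genes of area patterning, namely further patterning factors, FGF and retinoid pathway genes, area markers and paralogs of the 8. Of these, 40 could be tested, and the signalling genes Fgf8, Fgf17, Wnt3a and Wnt8b had too few reads. In Emx1Cre mutants 1 of 40, Emx1, was called by edgeR, against 0.0789% of all genes tested. Of the 40, 14 had an unadjusted p under 0.05 (6 higher and 8 lower), against 7.59% of all genes, and DESeq2 called 11, against 1.48%. Both the 14 and the 11 include Lhx2, the deleted gene, and Emx1, the locus that drives the Cre of that line. The list was also chosen with earlier results of these data known, so its shares in either line are no independent result. In NexCre mutants 1 of 40, Lmo3, was called by edgeR, against 0.0307%. There, 10 of 40 had an unadjusted p under 0.05 (5 higher and 5 lower), against 3.96%, and DESeq2 called 2, against 0.394%. Over the 40 genes the median log2 fold change was -0.02 in Emx1Cre mutants and 0.08 in NexCre mutants, beside 0 and 0.0038 for all genes.

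Emx1, a homeobox gene of dorsal telencephalic progenitors and neurons and the locus that drives the Cre of that line, fell in Emx1Cre mutants. It was at 66.4 and 78.4 CPM in the controls against 24.6 and 21.0 CPM in the mutants, a log2 fold change of -1.66 ± 0.22 (adjusted p = 0.0334 by edgeR). The call was lost with the Emx1Cre line fitted alone, without any 1 of the 4 Emx1Cre libraries and without either NexCre mutant, and over all alternatives the adjusted p reached 0.162. Emx1 was at 32.1 and 50.3 CPM in the NexCre controls against 27.8 and 26.3 CPM in the NexCre mutants, lower in both mutants with a log2 fold change of -0.61 ± 0.22 (adjusted p = 1). The part that the Cre allele itself had in the Emx1 counts was not tested. Neurod6, the locus of NexCre, was at 395 and 507 CPM in the NexCre controls against 308 and 228 CPM in the mutants (log2 fold change -0.75 ± 0.23, adjusted p = 0.95), while its Emx1Cre groups overlapped.

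Lmo3 encodes a LIM-only protein, a partner of LIM-domain complexes that itself binds no DNA. It fell in NexCre mutants, from 213 and 188 CPM in controls to 68.8 and 64.7 CPM in mutants, with a log2 fold change of -1.58 ± 0.20 (adjusted p = 0.0462 by edgeR, 1.2e-08 by DESeq2). In the Emx1Cre line Lmo3 was at 133 and 156 CPM in the controls against 102 and 157 CPM in the mutants, and the groups overlapped. For the difference of effects, NexCre minus Emx1Cre, edgeR called 0 of the 40 genes, against 0.00438% of all genes, 9 had an unadjusted p under 0.05, against 5.44%, and DESeq2 called 1, Lmo3, against 0.487%. The 3 with the lowest p were Lmo3 (-1.42 ± 0.28 on the log2 scale), Emx1 (1.06 ± 0.30) and Lhx2 (0.95 ± 0.28), with adjusted p of 0.433, 0.648 and 0.648 by edgeR. Lmo3 lost its edgeR call in NexCre mutants with other scalings, with a strict filter on low counts, and without NexCre control 1, NexCre mutant 1 or NexCre mutant 2.

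Efna5, which encodes an ephrin ligand that guides thalamic axons between and within areas, was lower in both mutants of both lines. It was at 27.0 and 36.4 CPM in the Emx1Cre controls against 11.4 and 9.61 CPM in the Emx1Cre mutants (log2 fold change -1.60 ± 0.31; adjusted p = 0.133 by edgeR, 9.3e-05 by DESeq2). It was at 46.8 and 25.1 CPM in the NexCre controls against 12.04 and 16.7 CPM in the NexCre mutants (log2 fold change -1.32 ± 0.30; adjusted p = 0.499 by edgeR, 0.00869 by DESeq2). The ETS-family gene Etv5, a target of FGF signalling, was higher in both mutants of both lines. Etv5 was at 61.7 and 60.5 CPM in Emx1Cre controls against 122 and 101 CPM in mutants (log2 fold change 0.87 ± 0.16, adjusted p = 0.115), and at 57.2 and 46.5 CPM in NexCre controls against 79.4 and 74.7 CPM in mutants (0.57 ± 0.16, adjusted p = 0.764). The higher Etv5 and Id3 of Emx1Cre mutants stood beside the higher sums of several marker lists given with Id2. These were astrocyte, progenitor, endothelial, microglial, meningeal, oligodendrocyte lineage, thalamic and erythroid markers, and the part of those cells was not tested.

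**Figure D5:**
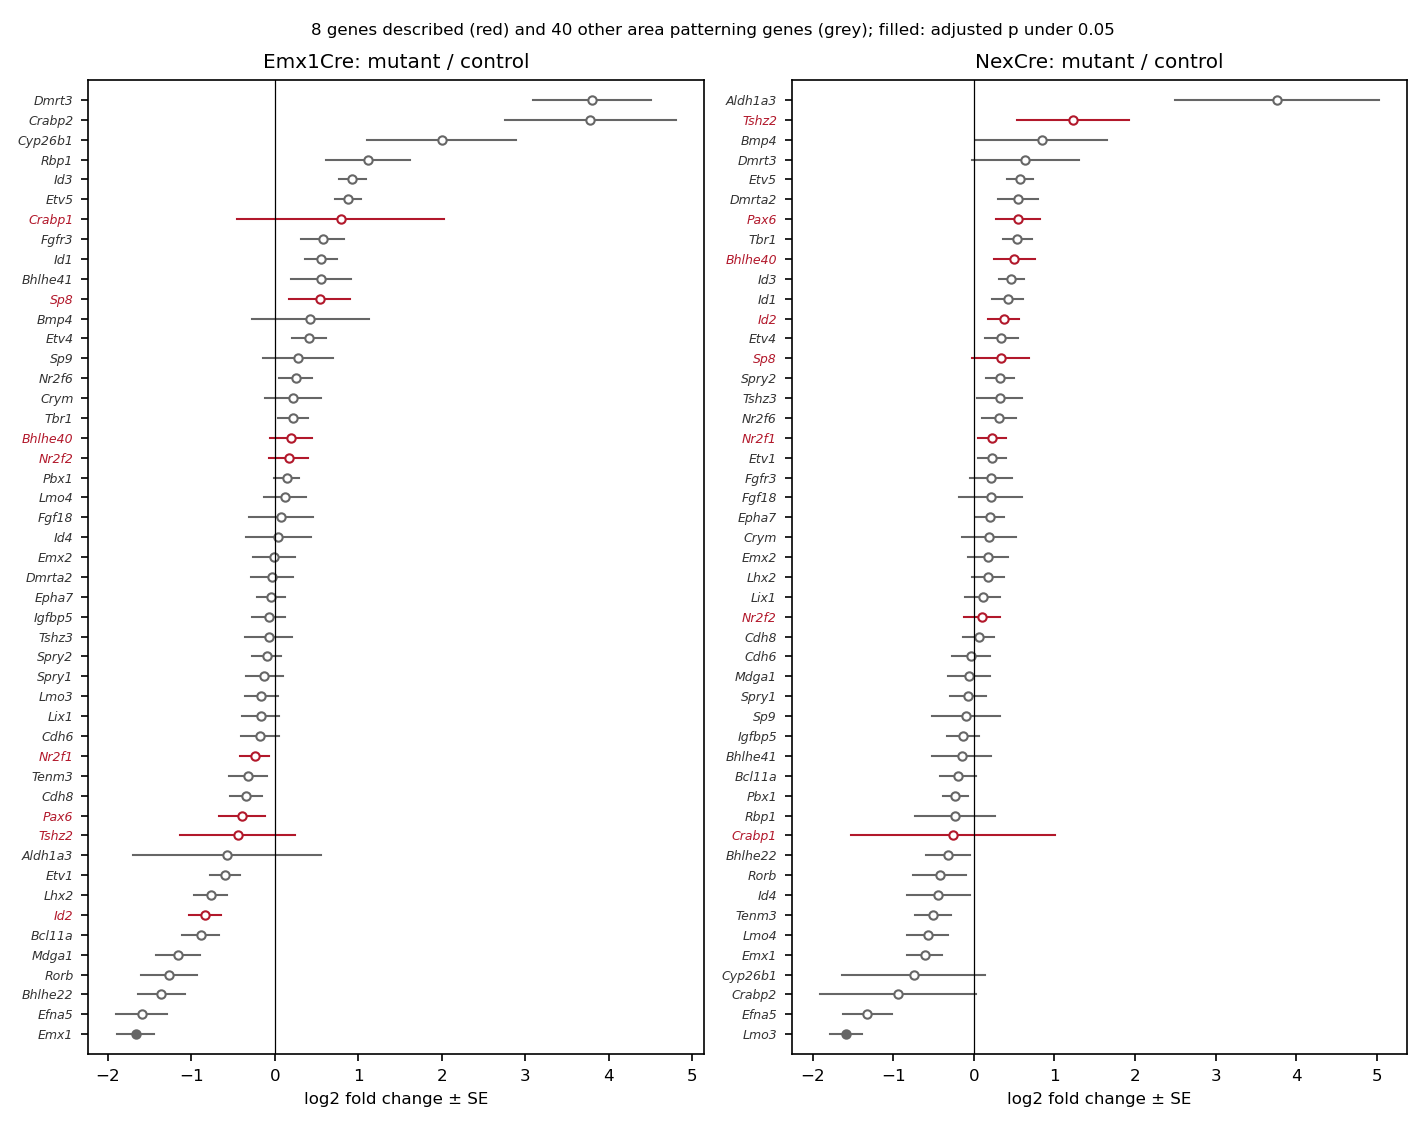
Log2 fold changes (points) with their standard errors (lines) of the 8 genes (red) and of 40 other area patterning genes (grey) in Emx1Cre mutants on the left and NexCre mutants on the right, ordered by size; filled points have an adjusted p under 0.05 by edgeR. The only filled points are Emx1 on the left, at -1.66, and Lmo3 on the right, at -1.58.

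Likeness of profile was measured as the root mean square difference, over the 8 libraries, of log2 levels centred within each line, among 156 genes of the area and marker lists. Id2 was nearest to Neurod2, a factor of excitatory neurons, with a root mean square difference of 0.217, where the spread of Id2 itself was 0.36. Etv1, a gene of the area list, was almost as near, at 0.218. Etv1 was lower in both Emx1Cre mutants too (log2 fold change -0.60 ± 0.18), and its NexCre groups overlapped. Neurod2 was at 203 and 352 CPM in the Emx1Cre controls against 171 and 183 CPM in the Emx1Cre mutants, and at 282 and 393 CPM in the NexCre controls against 355 and 443 CPM in the NexCre mutants. It was thus lower in both Emx1Cre mutants, as Id2 was, while its NexCre groups overlapped. Crabp1 was nearest to the striatal genes Drd2 (0.537) and Isl1 (0.564), where its own spread was 1.25, the widest of the 8.

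The nearest genes of the others were Slc17a7 for Nr2f1, Pdgfra for Nr2f2, Ccn2 for Pax6, Cx3cr1 for Sp8, Tbr1 for Bhlhe40 and Bmp4 for Tshz2. For Nr2f1, Nr2f2, Sp8 and Bhlhe40 the differences from these genes were 0.0937 to 0.138. Nr2f1 and Nr2f2 also had spreads of only 0.18 and 0.166 of their own, so that likeness separates few genes there. Tshz2 had no close neighbour, with a difference of 0.609 from Bmp4 against its own spread of 0.838. These values describe 8 libraries that share their line and depth, and no test was made of them.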

How the data were processed

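The authors deposited raw counts of sequencing reads for each gene, as a separate table for the Emx1Cre and the NexCre libraries. HISAT2, SAMtools and DESeq2 and the mm10 build are named, per the submitters' processing notes. Not given in the sources used here were versions, the counting program, its annotation and its use of strand. Tables were merged on gene symbol. Date-like symbols made by a spreadsheet (26 and 24 rows, 0.239% to 0.269% of reads) were dropped, and no per-sample column was left unused.

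Low genes were removed with filterByExpr (minimum count 10), and TMM-scaled counts of the 8 libraries were fitted together with edgeR 4.0.16 under R 4.3.3 (glmQLFit, prior count 0.125; group as sole factor; 4 residual degrees of freedom). The biological coefficient of variation came to 26.2%. Two-sided quasi-likelihood F tests were adjusted by Benjamini-Hochberg over 22820 genes, with 0.05 as threshold. The alternatives were DESeq2 1.42.0, other scalings and filters, separate fits by line, a replicate block and the removal of single libraries. Positions and exon lengths are from GENCODE M21, whose symbols were matched to the tables, and promoter windows are from RefSeq. Log levels used a pseudocount of 0.5 CPM. The labels do not state that pools came from separate litters, so each p measures only the spread between these pools.

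The 8 genes and all lists were chosen with earlier results of these data known. Beyond the 8 genes, Lhx2, Emx1 and Neurod6, the rule named every called gene of the area list, its 3 lowest p per mutant comparison and for the difference of effects, and the 2 nearest genes in profile. Id1, Id4, Eomes, Mki67, Cplx3, Cnr1, Penk, Drd1, Ttr and Clic6 were chosen after their values were seen.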

Additional observations from a re-analysis of the deposited data

Results flagged for a closer look

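Id2 was singled out because its mutant effect differed between the lines. The difference of the log2 fold changes, NexCre minus Emx1Cre, was 1.21 (1.207 before rounding), with both Emx1Cre mutants below and both NexCre mutants above their controls; it passed the interaction test of DESeq2 (adjusted p = 0.0293) and not that of edgeR (adjusted p = 0.54).

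Lmo3 was singled out for the same reason, with a difference of -1.42 (adjusted p = 0.00727 by DESeq2 and 0.433 by edgeR). It was lower in both NexCre mutants, while the Emx1Cre groups overlapped. Groups of 2 libraries are too small to look for a library that stands apart within its group.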

How the results depend on the processing

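Of 240 recomputed log2 fold changes of the 8 genes in the mutant comparisons, 228 kept their direction and their side of the threshold, 3 passed it anew and 9 reversed. Without a low-count filter edgeR called 1 of the 8 genes in Emx1Cre mutants (Id2), 1 in NexCre mutants (Tshz2) and 2 for the difference (Tshz2 and Id2); DESeq2 called 1, 0 and 1 (Id2). Those settings also called many more genes in all, 585, 251 and 408 without the filter and 298, 76 and 96 with DESeq2, and the cause was not tested. Of the other area genes in Emx1Cre mutants, 13 were called without a filter, 11 by DESeq2, 0 with each line alone and 0 to 2 without a library. In NexCre mutants 0 were called with RLE scaling, 0 with upper-quartile scaling, 0 with a strict filter, 3 without a filter, 2 by DESeq2 and 0 to 1 without a library.

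With the replicate number as a block, 4 area genes were called in Emx1Cre mutants and no call of the 8 genes changed. Libraries with the same number shared deviations (r = 0.323 in the Emx1Cre and 0.151 in the NexCre line), but the labels give the numbers no meaning and each line has only 2 pairs.

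The Tshz2 difference between the controls changed sign, to 0.0099 with RLE scaling, 0.024 with upper-quartile scaling, 0.027 with a strict filter and 0.0058 with DESeq2. Leaving out each library in turn reversed other signs, the lone sample of a group then being assumed to vary like the others. In Emx1Cre mutants the log2 fold change ran from -0.13 to 0.41 for Nr2f2, -0.81 to 0.19 for Pax6, -0.0077 to 1.09 for Sp8, -1.08 to 0.69 for Tshz2, -1.57 to 1.64 for Crabp1 and -0.63 to 0.0058 for Neurod6. In NexCre mutants it ran from -0.0044 to 0.19 for Nr2f2, -0.15 to 2.05 for Tshz2 and -3.35 to 2.45 for Crabp1. The difference of effects ran from -0.31 to 0.23 for Nr2f2, -0.76 to 0.34 for Sp8, -0.089 to 0.59 for Bhlhe40 and -4.14 to 1.67 for Crabp1. Between the controls it ran from -0.85 to 1.11 for Tshz2 and -3.26 to 0.35 for Crabp1. The cause of these reversals was not tested. Id2 kept its sign in all 4 comparisons under all alternatives.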
